A study of Mus musculus with 5 samples.

Results

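CBX2 occupancy was compared between mouse embryonic fibroblasts (MEFs) that expressed the histone mutant H3.3 K27M and their Control cells. The material consisted of the 327 CBX2 peaks called in the K27M library and the 289 called in the Control library, 616 peaks in all from 2 of the 5 CBX2 libraries in the series. A peak was taken as kept when it overlapped a peak of the other list by at least 1 bp, and overlapping peaks of both lists were joined into 384 sites. A site in both lists was called wider in K27M when its summed K27M width was at least 1.5 times its summed Control width, narrower when the Control width was at least 1.5 times the K27M width, and similar otherwise. Genes were assigned by the annotated 5′ end of each protein-coding gene on mouse genome build mm9, called the gene start here.

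Both groups were MEF cultures that carried loxP-flanked (floxed) alleles of Eed, a core subunit of Polycomb Repressive Complex 2 (PRC2), and no recombination of these alleles is described for either group. The Control cells were the parental EED floxed cells. The K27M cells were derived from the same parental cells by a lentivirus for stable expression of H3.3K27M, so that the mutant histone was made from a transgene beside the normal H3 genes. Whether the Control cells received an empty virus is not stated. Chromatin was crosslinked, cut to mononucleosomes with micrococcal nuclease (MNase), and fragments bound by a CBX2 antibody were sequenced. Each group had 1 library, so no spread between replicates could be computed and no test of a difference was possible. A pair of widths gives the Control value and then the K27M value, and it describes these 2 libraries rather than a tested change. Intervals in brackets are at the 95% level, take each peak as independent of the others and hold nothing but counting error. The lists held peak positions without heights or read counts, the sequencing depth of both libraries is unknown, and more or wider peaks in a library cannot be told apart from a more deeply sequenced or better enriched library. The lists gave no expression values with which to check the fibroblast identity of the cells.

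PRC2 deposits H3K27me3, a mark of silenced developmental genes, and the K27M mutant histone is known to inhibit PRC2. CBX2 is a subunit of Polycomb Repressive Complex 1 (PRC1) that binds H3K27me3 through its chromodomain and compacts chromatin. In mammals both complexes gather at unmethylated CpG islands, in particular those of genes for developmental transcription factors that are silent in the cell type studied. The comparison addressed whether the distribution of PRC1 changed in cells in which PRC2 is inhibited.

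The promoters of 6 genes are printed as examples of the sites described further on. The first 3 show the CpG-rich starts of developmental transcription factors. Neurog1 lay under a peak in K27M only. Cdx2 lay in a kept site of which the K27M peak, but not the Control peak, reached the gene start, and En1 lay in a kept site of similar width. Each sequence runs 5′ to 3′ along the gene, from 250 bases before to 50 bases after the start annotated in GENCODE vM1, and was read from NCBIM37, the assembly of mm9. Capitals mark CpG dinucleotides. The positions are chr13:56353475-56353774 on the minus strand for Neurog1, chr5:148118797-148119096 on the minus strand for Cdx2 and chr1:122498745-122499044 on the plus strand for En1.
Neurog1: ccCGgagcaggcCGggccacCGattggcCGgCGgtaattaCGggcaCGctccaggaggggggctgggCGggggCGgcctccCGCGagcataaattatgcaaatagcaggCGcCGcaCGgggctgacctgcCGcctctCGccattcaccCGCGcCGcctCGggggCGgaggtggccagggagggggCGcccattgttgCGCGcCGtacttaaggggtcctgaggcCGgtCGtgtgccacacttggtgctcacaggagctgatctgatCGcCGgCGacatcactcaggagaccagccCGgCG
Cdx2: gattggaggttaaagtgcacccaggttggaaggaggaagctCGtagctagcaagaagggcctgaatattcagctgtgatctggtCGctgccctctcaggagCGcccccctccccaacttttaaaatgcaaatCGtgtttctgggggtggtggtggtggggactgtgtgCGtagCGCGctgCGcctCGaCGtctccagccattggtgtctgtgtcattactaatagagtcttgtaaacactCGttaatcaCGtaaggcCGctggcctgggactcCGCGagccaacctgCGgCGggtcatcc
En1: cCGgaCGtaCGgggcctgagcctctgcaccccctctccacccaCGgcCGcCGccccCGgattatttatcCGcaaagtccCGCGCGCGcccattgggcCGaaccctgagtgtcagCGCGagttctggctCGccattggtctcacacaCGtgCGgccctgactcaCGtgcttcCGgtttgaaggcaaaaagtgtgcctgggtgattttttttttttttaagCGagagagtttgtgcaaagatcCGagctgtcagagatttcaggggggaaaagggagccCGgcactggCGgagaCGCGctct

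The other 3 are the promoters of genes whose start lay under a Control peak and under no K27M peak: Junb, Hist1h3d and Hist1h1e. Here capitals mark the TATA box letters TATAAA and the CCAAT box letters CCAAT on either strand. The positions are chr8:87502568-87502867 on the minus strand for Junb, chr13:23667382-23667681 on the plus strand for Hist1h3d and chr13:23714322-23714621 on the minus strand for Hist1h1e. They are shown for the motifs counted at the end of the results, and were chosen to hold them. The Neurog1, Cdx2 and En1 windows held 32, 17 and 26 CpG and none of these 3 held TATAAA. The Junb, Hist1h3d and Hist1h1e windows held 21, 8 and 31 CpG, so the number of CpG does not separate these examples, and TATAAA and CCAAT were found in all 3.
Junb: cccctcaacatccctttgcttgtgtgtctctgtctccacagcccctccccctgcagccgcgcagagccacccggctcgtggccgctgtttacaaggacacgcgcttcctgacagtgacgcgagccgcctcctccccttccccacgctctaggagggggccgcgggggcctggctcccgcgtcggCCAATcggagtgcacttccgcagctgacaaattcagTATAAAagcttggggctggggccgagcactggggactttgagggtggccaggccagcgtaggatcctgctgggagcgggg
Hist1h3d: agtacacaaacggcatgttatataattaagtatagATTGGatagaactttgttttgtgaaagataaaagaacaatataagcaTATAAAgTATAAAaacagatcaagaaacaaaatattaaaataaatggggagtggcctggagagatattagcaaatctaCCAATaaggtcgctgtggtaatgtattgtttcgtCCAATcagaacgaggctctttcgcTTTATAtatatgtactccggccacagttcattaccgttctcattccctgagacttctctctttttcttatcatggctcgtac
Hist1h1e: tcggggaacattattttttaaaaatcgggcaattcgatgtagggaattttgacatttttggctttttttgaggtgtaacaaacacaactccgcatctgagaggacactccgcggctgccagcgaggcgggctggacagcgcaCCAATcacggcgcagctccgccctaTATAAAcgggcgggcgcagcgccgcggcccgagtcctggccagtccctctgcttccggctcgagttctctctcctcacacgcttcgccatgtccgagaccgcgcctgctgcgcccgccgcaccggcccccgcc

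Most Control peaks were found again in the K27M list, and the K27M list was longer and its median peak wider. Of the 289 Control peaks, 229 (79.2%, 74.1 to 83.8) had a K27M counterpart and 60 had none. Of the 327 K27M peaks, 222 (67.9%, 62.5 to 72.9) had a Control counterpart and 105 had none. The median peak was 7400 bp wide in Control (6200 to 8400) and 9600 bp in K27M (8000 to 11000). Among peaks of at least 5000 bp both medians were 12600 bp. Control peaks covered 3.27 Mb and K27M peaks 4.47 Mb. The K27M peaks covered 87.6% of the Control sequence, whereas the Control peaks covered 64.1% of the K27M sequence, so that the K27M list held most of the Control list and added to it. The narrowest Control peak was 1200 bp and the narrowest K27M peak 2200 bp.

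The kept peaks formed 219 sites, of which 208 joined exactly 1 peak of each list. The K27M width was above the Control width in 163 sites, equal in 18 and below it in 38. Across the 219 sites the median ratio of K27M to Control width was 1.19 (1.13 to 1.29), or 0.25 on the log2 scale. By the 1.5-fold rule, 76 sites were wider (34.7%, 28.4 to 41.4), 137 were similar and 6 were narrower (2.74%, 1.01 to 5.87). The median wider site measured 6100 bp in the Control list and 13700 bp in the K27M list, and the median similar site 12800 and 13400 bp. At the median, the wider sites were thus the smaller ones in Control and about as wide as the similar sites in K27M. Sites at the edge of the rule were Nkx2-5, at a ratio of 1.51 just inside the wider class, and Lhx4 (1.48) and Tlx3 (1.47) just outside it. Irx5 was the last site called narrower, at 0.667. The number of wider sites depended on the rule: it was 39 at a limit of 2-fold, 124 when a gain of 2000 bp was asked for instead, and 35 when both peaks of a pair had to overlap by 50%.

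**Figure D1:**
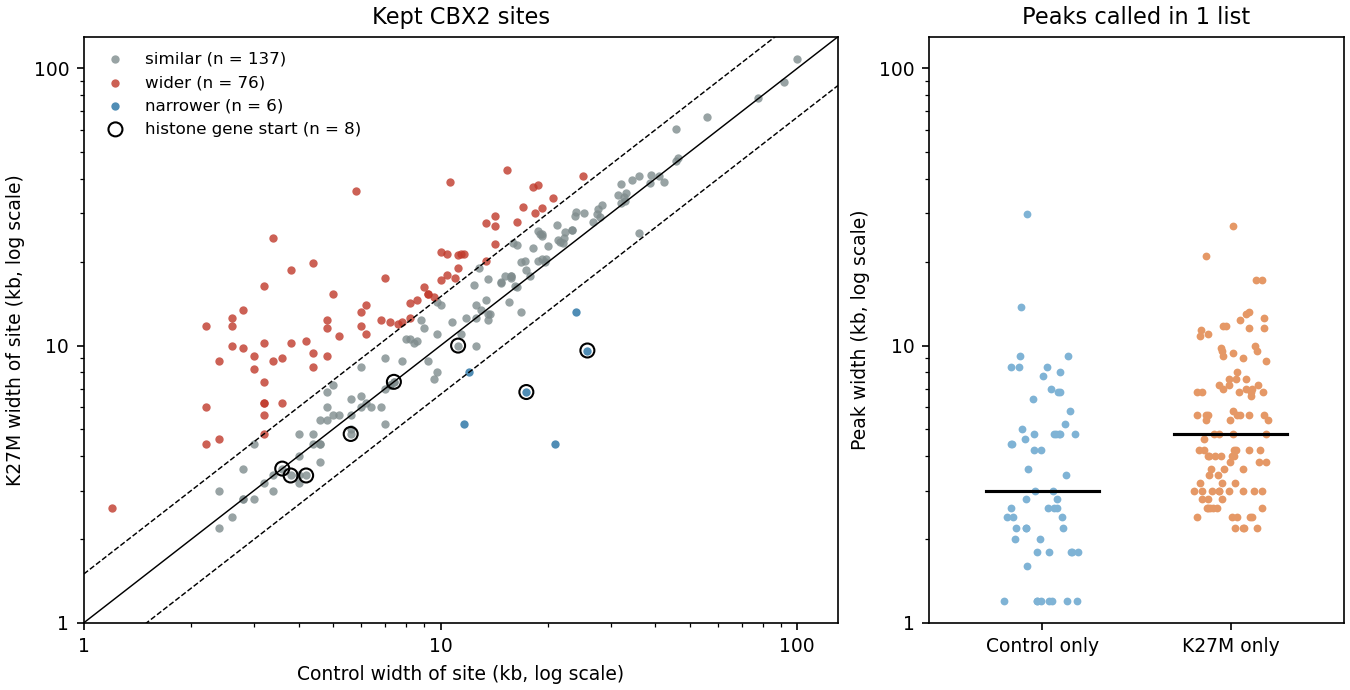
Left, summed K27M width against summed Control width in kb (log scales) for the 219 kept sites, coloured by class, with the solid line at equal width, dashed lines at the 1.5-fold limits and circles around the 8 kept sites with a histone gene start. Right, widths of the 60 Control-only and 105 K27M-only peaks in kb (log scale) with their medians as bars, 3000 and 4800 bp. Wider sites lie mostly at the left of the scatter, where the Control width is small.

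Because wider and narrower classes follow the Control width in part, the classes were also counted by the geometric mean of both widths. From 5 to 10 kb, 31 of 65 sites were wider (47.7%, 35.1 to 60.5), and at 20 kb and above 11 of 54 were (20.4%, 10.6 to 33.5). Below 5 kb the count was 12 of 36, and from 10 to 20 kb 22 of 64. Widening was thus counted in every size range, and its share was lowest among the broadest sites.

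Gene starts followed the same pattern, with fewer genes in Control only than in K27M only. Of 22238 protein-coding genes, 175 (0.787%) had their start under peaks of both lists, 88 (0.396%) under a K27M peak only and 26 (0.117%) under a Control peak only. The Control list reached 201 genes (0.904%) and the K27M list 263 (1.18%). Of the 88 K27M-only genes, 61 lay in sites called in K27M only, 25 in wider sites whose Control peak stopped short of the gene start, and 2 (Sox14 and Speer4e) in similar sites. Of the 26 Control-only genes, 15 lay in sites called in Control only and 11 in narrower sites. K27M-only genes thus lay both under new peaks and under wider ones. Among the 213 genes in kept sites, 63 (29.6%, or 0.283% of all protein-coding genes) were in wider sites and 15 (7.04%) in narrower ones.

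Genes for transcription factors that set cell identity in the embryo were 88 of the 175 genes in both lists and 31 of the 88 genes in K27M only. They were counted in 15 lists of gene families: Hox, LIM, Pax, Dlx and Msx, Irx with Six3 and its relatives, Nkx, paired-like, other homeobox, T-box, Sox, forkhead, Gata and Zic, POU, and proneural and mesodermal basic helix-loop-helix (bHLH) genes. Of their 308 genes, 1, Irx5, had its start under a Control peak only. The Control list reached 89 of the 308 (28.9%) and the K27M list 119 (38.6%), against 0.904% and 1.18% of all protein-coding genes. The listed genes were 35.2% of all K27M-only genes. Of the 102 listed genes in kept sites 36.3% lay in wider sites, beside 29.6% over all genes in kept sites. The latter share includes histone genes, 0 of them in a wider site, and genes of multi-copy sites. By site, 43.0% of kept listed sites and 40.7% of other kept non-histone protein-coding sites were wider. The gene shares therefore do not set the listed genes apart. All these shares take in starts that the K27M peak alone reached, which raises them. Over all genes, 25 such starts in kept sites lay in wider sites and 2 in similar ones. Of the 175 genes with a start in both lists, 38 lay in wider sites. The families were picked with results from the same peaks in view, so the counts describe them and are no independent evidence.

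Counted by site, no Control site with a listed transcription factor gene was without a K27M peak. A site was put in a group by a start under a peak of either list. Of the 31 listed genes in K27M only, 18 lay in K27M-only sites. The others lay in kept sites that the K27M peak alone put in this group. Such sites were kept by construction and a wide K27M peak reaches more starts, so the grouping partly sets the kept and wider shares. In this group 86 sites held a Control peak, and all 86 were kept, 80 of them at a larger K27M width and 6 at a smaller one. By class, 37 were wider (43.0%), 48 similar and 1 narrower, and 18 further sites were called in K27M only. The summed width of this group was 1372.4 kb in Control and 1981.6 kb in K27M, a ratio of 1.44. Of the 65 Control sites with the start of another protein-coding gene that is not a histone gene, 59 were kept (90.8%, 81.0 to 96.5), 24 of the 59 were wider (40.7%), and the summed widths of this group were 953 and 1433 kb. The listed and the other protein-coding sites thus had close values. Of the 116 Control sites without a protein-coding start under a peak of either list, 66 were kept (56.9%, 47.4 to 66.1). Kept sites whose K27M peak alone reached a start are not among them, which lowers this share. Of the 50 that were not, 25 were mostly sequence present in several copies in the genome, whose part in that count was not tested.

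Hox genes, which pattern the body axis, were kept in full and at similar width. All 17 Hox genes with a start under a Control peak had it under a K27M peak as well, 0 of the other 22 gained one, and all 5 Hox sites were of similar width. The Hoxc site, from Hoxc13 to Hoxc8, spanned 91.6 kb in Control and 89.2 kb in K27M. The Hoxd site, which also holds Evx2, measured 46.2 and 47.6 kb, and the Hoxa site (Hoxa9, Hoxa10, Hoxa11 and Hoxa13) 42.4 and 39 kb. At Hoxb13 the widths were 41 and 40.8 kb, and at Hoxb8 and Hoxb9 32.8 and 33.2 kb. The 5 ratios lay between 0.920 and 1.03. The 17 genes all belonged to groups 8 to 13, toward the 5′ end of each cluster. Of these groups Hoxd8 and Hoxd9 were in neither list, and no Hox gene of a lower group had its start in either list.

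Proneural and oligodendrocyte bHLH genes, which commit progenitors to neurons or oligodendrocytes, had most of their additions in new sites. Only Bhlhe22, Neurog2, Olig2 and Olig3 of the 21 annotated had a start under a Control peak, and 7 more did in K27M, among them Atoh1, Neurod1, Neurod2, Neurog1, Olig1 and Ptf1a. Of the 7, 6 lay under peaks with no Control counterpart. The K27M peak was 12.4 kb at Ptf1a, 11.4 kb at Neurog1, 9.8 kb at Neurod1, 9.2 kb at Atoh1 and 4.8 kb at Olig1, and the Control list had no peak at any of them. The neighbour of Olig1, Olig2, measured 7.0 and 17.6 kb and Olig3 14.2 and 29.4 kb, whereas Neurog2 measured 17.2 kb in Control and 20.2 kb in K27M and stayed in the similar class. Among the mesodermal and muscle bHLH genes the count was 2 of 19 in Control and 3 in K27M. Tal1, a regulator of blood formation, went from 4.8 to 12.4 kb, and Hand2, a regulator of heart and limb, had a K27M peak of 9.6 kb only. Tcf21, a regulator of mesenchymal organ development, went from a summed 18.2 to 37.2 kb. Its K27M peak joined a pair of Control peaks, and the outer borders moved by 1600 bp upstream and 600 bp downstream.

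Of 45 other homeobox genes, 21 had a start under a Control peak and 28 under a K27M peak, and none was in Control only. Of the 28, 14 lay in similar sites, 11 in wider sites and 3 in K27M-only sites. The K27M-only members were Barhl1, Cdx2, Emx1, Gbx1, Gsx1, Gsx2 and Onecut1. Cdx2, the caudal regulator of intestine and trophoblast, had the largest ratio of all sites with a gene start, 7.18, with a Control width of 3.4 kb and a K27M width of 24.4 kb. Emx1, a regulator of the cerebral cortex, went from 2.2 to 11.8 kb and Gbx2, which acts at the boundary of midbrain and hindbrain, from 2.4 to 8.8 kb. En1 (19.6 and 20 kb), Mnx1 (20 and 22.8 kb) and Barhl2 (23.8 and 29.4 kb) were in similar sites, and Tlx1 (11.4 and 21.4 kb) and Onecut1 (11.2 and 21.2 kb) in wider ones.

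In the LIM homeobox list, Lhx5 went from 3.2 to 16.4 kb, Lhx1 from 11.2 to 19 kb and Lhx8 from 6.8 to 12.4 kb, while Isl1, a regulator of motor neurons and heart, measured 21.6 and 23.6 kb. Of the 5 LIM genes in peaks, 3 were thus in wider sites. Of the Pax genes, Pax2, Pax5 and Pax6 had starts under both lists, and Pax3 and Pax7, which specify neural crest and muscle precursors, were added. The wider Pax sites were Pax2 (18.8 and 38 kb), Pax3 (11.6 and 21.4 kb) and Pax7 (10 and 17.2 kb). Pax6, the eye regulator, measured 32.6 and 34.4 kb. Pax5, a B cell regulator, measured 16 and 23.4 kb, a ratio of 1.46 just under the limit.

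Nkx genes went from 6 to 8 of 14, with 4 in wider sites (Nkx2-1, Nkx2-5, Nkx3-2 and Nkx6-1) and Nkx1-1 and Nkx2-6 in K27M-only sites. Nkx2-1, a lung and thyroid regulator, measured 19.2 kb in Control and 31.4 kb in K27M, and Nkx3-2 14.2 and 27 kb. The forkhead list went from 8 to 11 of 43, and 7 of the 11 were in wider sites: Foxa2, Foxb2, Foxd4, Foxe1, Foxf2, Foxi3 and Foxl2. Foxa2, the pioneer factor of endoderm and floor plate, went from 20.6 to 34 kb, and Foxe1, a thyroid factor, from 2.8 to 9.8 kb. The other 4 forkhead genes, Foxa1, Foxb1, Foxd1 and Foxd3, were in similar sites, with ratios between 1.01 and 1.19.

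Paired-like genes went from 8 to 11 of 24, with Dmbx1 and Rax, a regulator of the eye field, among those added. POU genes went from 3 to 5 of 14 with Pou4f2 and Pou4f3, and Gata and Zic genes from 5 to 6 of 11. Dlx and Msx genes went from 2 to 3 of 9 with Dlx4, and Sox genes from 2 to 3 of 19 with Sox14. The T-box list had 1 of 17, Tbx20, in both. The list of Irx and Sine oculis-related genes (Six3, Six6 and others) was the single transcription factor list with fewer members in K27M, 3 and then 2 of 12. The Irx5 site, which also holds 4933436C20Rik, measured 12 kb in Control and 8.0 kb in K27M. The K27M peak did not reach the Irx5 start and lay 306 bp from it. Sox2, Sox21 and Six3, regulators of neural progenitors and forebrain, were in similar sites with ratios of 1.12, 1.09 and 1.12.

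**Figure D2:**
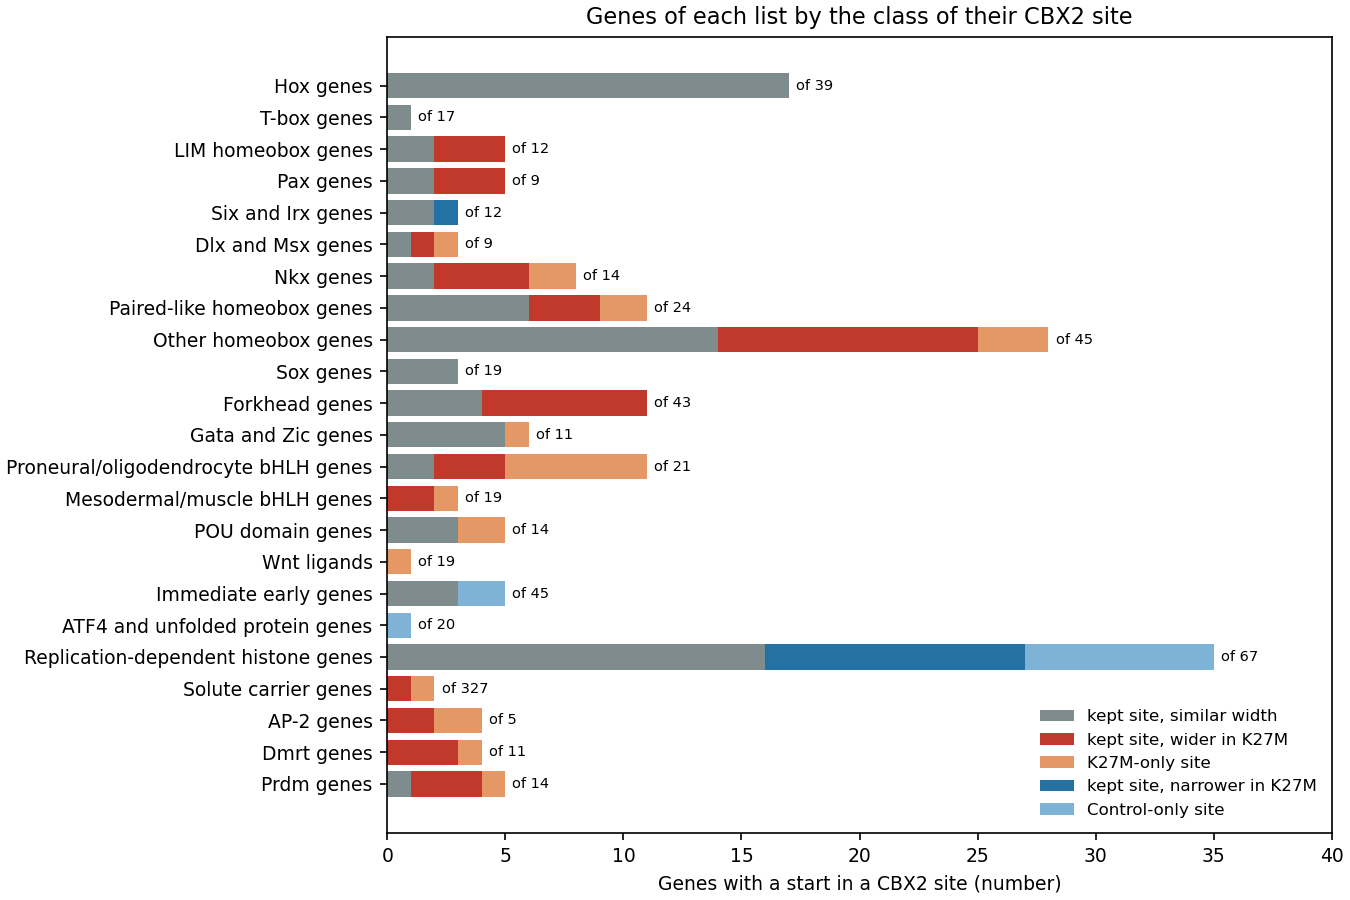
Number of genes of each list whose start lay in a CBX2 site, split by the class of the site (bar length in genes, with the number annotated beside each bar). Hox genes lie in similar sites alone, proneural bHLH genes have the longest K27M-only segment, and narrower and Control-only segments belong to the histone, immediate early, stress and Irx lists. AP-2, Dmrt and Prdm genes were added as lists after their values were seen.

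A further 3 transcription factor families were counted after their values had been seen. AP-2 genes, regulators of neural crest and epidermis, went from 2 to 4 of 5: Tcfap2a measured 25 and 40.8 kb, Tcfap2b 5.8 and 36.2 kb, and Tcfap2c and Tcfap2e had K27M peaks only. The Tcfap2b ratio of 6.24 was the second largest, and its K27M peak joined a pair of Control peaks, as did that of Tcfap2a. Dmrt genes went from 3 to 4 of 11, with Dmrt2, Dmrt3 and Dmrta2 wider, and Prdm genes from 2 to 5 of 14.

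Among all sites with a gene start, the 10 largest ratios were those of Cdx2, Tcfap2b, Emx1, Lhx5, Prss16, Dock3, Gad2, D130058E05Rik with Gbx2, Foxe1 and Dmbx1, and they ran from 7.18 down to 3.08. Gad2, an enzyme that makes the transmitter GABA, went from 2.6 to 10 kb, and Slc32a1, the vesicular GABA transporter, from 3.8 to 10.2 kb. Prss16 went from 3.8 to 18.8 kb and Dock3 from 2.8 to 13.4 kb. Transcription factor genes outside the lists that lay in wider sites included Wt1, a kidney and gonad regulator (13.4 to 27.6 kb), and Insm1, a neuroendocrine regulator (6.2 to 11 kb). Wt1 and Insm1 were picked after their values were seen.

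The 10 widest K27M-only sites with a gene start included those of Onecut3, Fezf2, Rfx4, Ptf1a, Pou4f2, Irs4, Neurog1, and Bcl11a with A830031A19Rik, which measured from 13.2 down to 10 kb. Fezf2, which specifies subcortical projection neurons, had a peak of 13 kb, Onecut3 one of 13.2 kb and Rfx4 one of 12.6 kb. Other K27M-only genes, named after their values were seen, were those of the neuropeptide Npy (6.8 kb), the synapse organizer Cbln1 (7.2 kb), the calcitonin receptor Calcr (5.8 kb) and the axon guidance receptor Robo3 (3 kb), and of the transcription factors Cux2 (6.8 kb), Satb1 (5.6 kb), Fev (5.6 kb) and Trp73 (4 kb). Over all 105 K27M-only sites the median width was 4800 bp (4000 to 5600), so that these were the broad end of a mostly narrow class. The median distance of K27M-only sites to the nearest Control peak was 3264.2 kb, and 10 of 105 lay within 100 kb of one. The share for random positions was not computed.

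**Figure D3:**
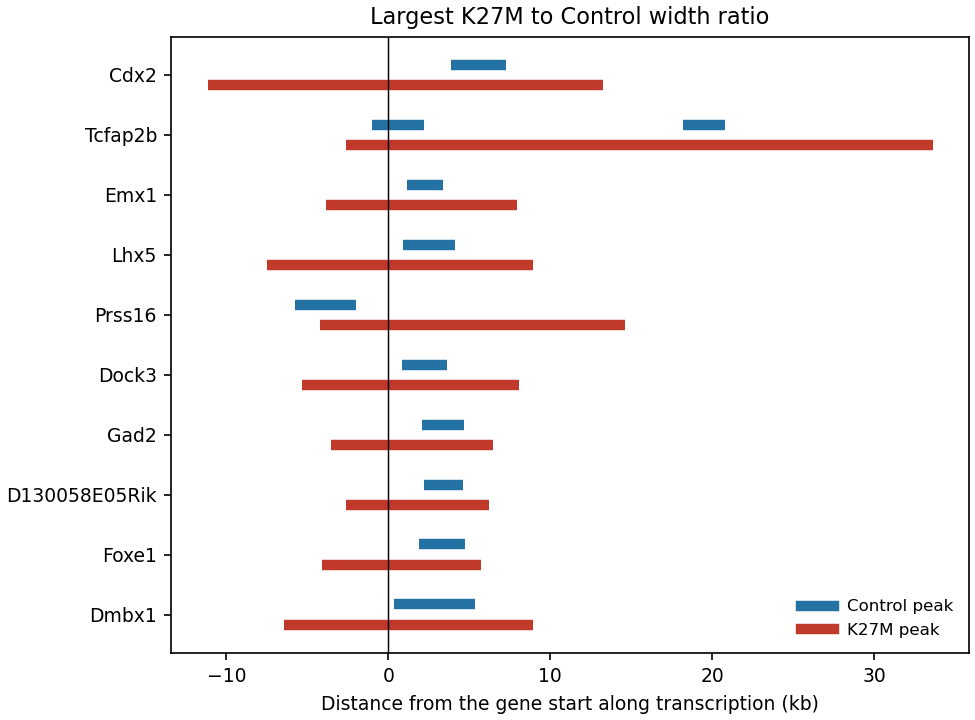
Peaks around the gene start (0 kb, transcription to the right) in Control and K27M for the 10 sites with the largest K27M to Control ratio, in kb along transcription. At Gbx2 the axis and the count below use the neighbouring start D130058E05Rik, and the start of Gbx2 itself lay inside the Control peak. For 8 of the 10 sites the Control peak or peaks lie wholly downstream of the start, and the K27M peak spans it.

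In the 76 wider sites K27M peaks covered 683.6 kb that Control peaks did not. Of the 76, 70 held 1 peak of each list and so had no gap to fill, and their 563 kb of added sequence lay outside the Control borders by construction. In the other 6, which held several peaks of a list, 75.8 kb lay in gaps between Control peaks and 44.8 kb outside the outermost borders. Sequence was added at both ends in 69 of the 76 (90.8%, 81.9 to 96.2), and 70 lost no base of Control peak. For the 59 wider sites with a single gene start, the K27M border lay a median of 3000 bp (2200 to 4400) beyond the Control border on the upstream side and 3000 bp (2600 to 4400) on the downstream side. The added width was therefore about even in both directions. For 25 genes the K27M peak covered a start that the Control peak did not reach, at a median distance of 1112 bp. The Control peak lay downstream of the start, on the side of the gene body, for 18 of the 25, among them Cdx2 (3846 bp), Gad2 (2076 bp) and Emx1 (1169 bp), and upstream for 7, among them Pax3 (4092 bp) and Onecut1 (3128 bp).

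The sequence under the added width held fewer CpG than the core of the site and more than its surroundings. In the wider sites the sequence in both lists held 30.4 CpG per kb, the sequence in K27M peaks only 20.7 and the 5 kb outside the site 13.1. In the similar sites the same values were 23.2, 15.2 and 12.7. Measured outward from the Control border in steps of 200 bp, CpG density at the wider sites was 27.4 per kb in the bin at the border, 31.0 in the bin from 800 bp and 20.4 in the bin from 1600 bp. At the similar sites it went from 21.4 at the border to 16.4 and 14.5 at the same distances. The Control border of a wider site thus lay within CpG-rich sequence, and that of a similar site nearer to its end. A window that met the criteria of a CpG island was present in 73 of 76 wider sites (96.1%) and 106 of 137 similar sites (77.4%). Mostly multi-copy sequence made up 2 of the 76 wider and 26 of the 137 similar sites. All CpG values of wider and similar sites include it, and its part in their difference was not tested.

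**Figure D4:**
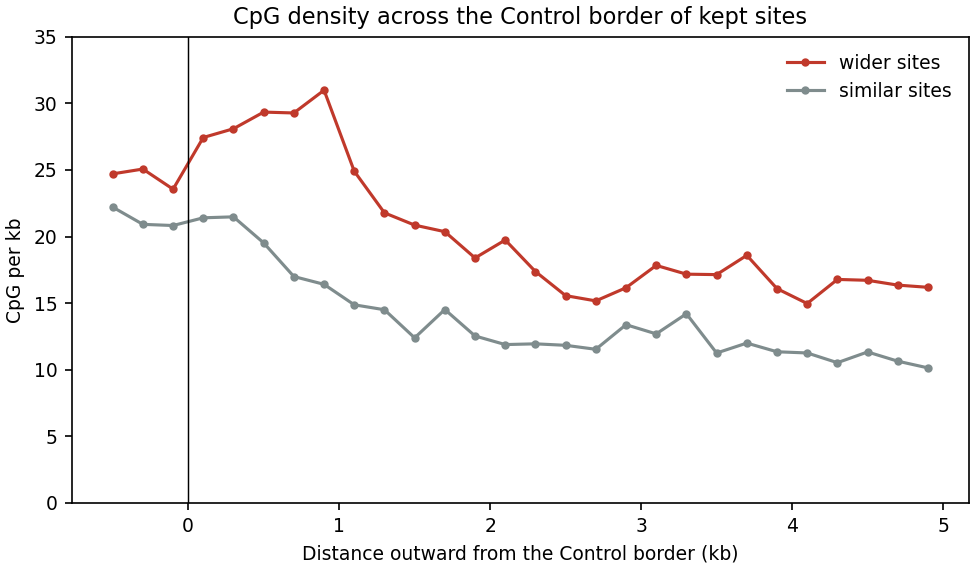
CpG per kb in 200 bp bins by distance outward from the Control border in kb (negative values lie inside the Control peak), summed over both borders of the 76 wider and 137 similar sites. In wider sites the density peaks at 31.0 per kb outside the border, and in similar sites it falls beyond the bin from 200 bp. Multi-copy sites are included.

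K27M-only sites held a CpG island window in 91 of 105 cases (86.7%, 78.6 to 92.5) and a median of 32.5 CpG per kb (29.5 to 36.5). Control-only sites held one in 18 of 60 (30.0%, 18.8 to 43.2) and a median of 10.2 CpG per kb (7.22 to 16.7). Their median width was 3000 bp (2400 to 4800). Mostly multi-copy sequence made up 25 of the 60 Control-only sites and 5 of the 105 K27M-only sites, so the density was also summed without it. Over all sites it was 16.1 CpG per kb in Control-only and 31.7 in K27M-only peaks, and without the multi-copy sites 24.03 and 32.03. The order was the same without multi-copy sequence and the gap was smaller. The ratio of observed to expected CpG, which allows for G+C content, was 0.359 and 0.495 over all sites, and 0.498 and 0.499 without multi-copy sites, so on that measure the contrast was gone.

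Among the Control-only genes the most numerous were the replication-dependent histone genes, which are transcribed in S phase in dense clusters to supply histones for new chromatin. Of 67 annotated, 35 had a start under a Control peak and 19 under a K27M peak, all 19 shared, so that 16 were in Control only and 0 in K27M only. The 16 were the larger part of the 26 Control-only genes (0.117% of all protein-coding genes). By type the counts in Control and K27M were 5 and 3 of 6 for H1, 8 and 5 of 19 for H2A, 7 and 4 of 18 for H2B, 7 and 3 of 11 for H3, and 8 and 4 of 13 for H4. Every type was thus lower in K27M, and the genes share sites, so the types are not separate observations.

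The histone starts lay in 12 sites, whose summed width was 105.2 kb in Control and 49 kb in K27M, a ratio of 0.466 where the 372 other sites together had 1.40. None of the 12 was wider at all in K27M, 2 were equal, 6 were smaller and 4 were called in Control only. The site that holds Hist1h1c, Hist1h1a and 7 other histone genes (chr13:23830601-23856400) went from 25.8 to 9.6 kb, and that of Hist1h4f and Hist1h1d (chr13:23636601-23654000) from 17.4 to 6.8 kb. Between them on the chromosome, the site of Hist1h2bf, Hist1h2ad, Hist1h3d and Hist1h4d measured 13.8 kb in Control and had no K27M peak. The neighbouring sites of Hist1h2af with Hist1h3g (4.8 kb) and of Hist1h1e (1.2 kb), and that of Hist3h2ba on chromosome 11 (6.4 kb), were also Control only. Apart from Hist3h2ba, the narrower and Control-only histone sites therefore lay in 1 stretch of chromosome 13. In the narrower histone sites, Control-only starts lay between 100 bp (Hist1h1d) and 6936 bp (Hist1h3b) from a K27M peak.

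The 6 histone sites of similar width lay on chromosome 3 and in another stretch of chromosome 13, from 21841401 to 21927000. Hist1h1b measured 4.2 and 3.4 kb, the Hist1h4k site 5.6 and 4.8 kb, and the sites of the Hist2 cluster on chromosome 3 11.2 and 10 kb and 7.4 and 7.4 kb. The sites of Hist1h2bq and Hist1h4n (3.6 and 3.6 kb, 3.8 and 3.4 kb) were 97.2% and 100% multi-copy sequence, in which reads cannot be placed for certain. Histone genes are near-identical copies of each other, so the counts of single histone genes are uncertain. The 9 sites with at most 19.2% multi-copy sequence summed to 86.6 kb in Control and 32 kb in K27M, a ratio of 0.370, so the difference was no smaller without the repeated sites.

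**Figure D5:**
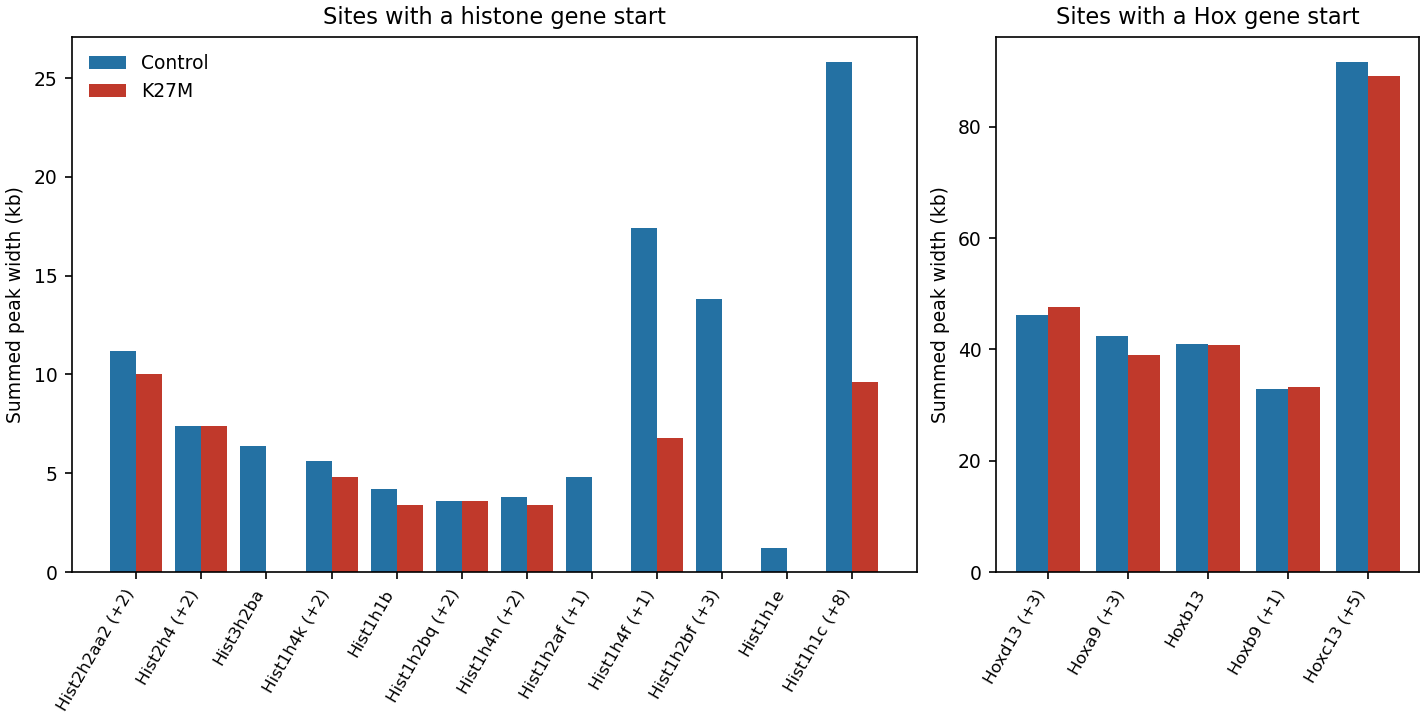
Summed peak width in kb in Control and K27M for the 12 sites with a histone gene start (left) and the 5 sites with a Hox gene start (right), labelled by 1 gene and the number of further listed genes. No K27M bar of a histone site is taller than its Control bar, and the 5 Hox pairs are nearly level.

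Immediate early and stress response genes were among the other Control-only genes. Of 45 immediate early genes, which are induced within minutes of stimulation, 5 had a start under a Control peak and 3 under a K27M peak. Cyr61 (4.4 and 4.4 kb), Egr1 (5.2 and 5.6 kb) and Ier2 (3.0 and 2.8 kb) were kept at similar width, and Junb (3.6 kb) and Ier3 (1.2 kb) were in Control only. Ddit3, a mediator of the unfolded protein response, had a Control peak of 2.4 kb only, the single one of 20 stress genes in either list. Of the few remaining Control-only genes, Nr2f1, a nuclear receptor of forebrain patterning, had a Control peak of 4.8 kb (chr13:78335401-78340200) and no K27M peak. A neighbouring site without a protein-coding start (chr13:78309801-78325800) was kept, at 15.6 and 14.4 kb. Peli2 had a Control peak of 3.4 kb and Gm17731 one of 2.2 kb that was 40.9% multi-copy. The Ier3 and Hist1h1e peaks were narrower than any K27M peak, the least of which was 2200 bp.

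The narrower sites were 6 in number and of mixed kind. Beside both histone sites and Irx5 they were Heatr7b1 (11.6 to 5.2 kb), BC107364 (24 to 13.2 kb, 56.7% multi-copy) and a site on chromosome 6 without a gene start (chr6:49165801-49186800, 21 to 4.4 kb). Among sites with a gene start, next in order but in the similar class were Gm10382 (0.743), Six6 (0.786), Sp9 (0.794) and Zswim5 (0.800). The 5 broadest kept sites with a gene start, the Hoxc site among them, had ratios between 0.974 and 1.32: Gm15319 measured 100 and 108 kb and 4930467E23Rik 55.8 and 67 kb, of which 88.0% and 84.7% were multi-copy, Sfi1 77.8 and 78 kb, and Zic1 with Zic4 45.8 and 60.4 kb.

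Most other gene groups were absent from both lists. None of 33 Polycomb subunit genes, 22 fibroblast genes, 7 cell-cycle inhibitors, 79 ribosomal protein genes, 36 protocadherin genes, 80 potassium channel genes, 340 Zfp zinc finger genes or 1087 olfactory receptor genes had a start under a peak. Sfmbt2, which stood outside the Polycomb list, had a K27M-only peak of 3.8 kb. Of 107 genes in 5 lists of signalling ligands and antagonists, 1 did, Wnt3, under a K27M peak of 2.6 kb. Of 327 solute carrier genes whose symbol ends in its family number there were 2, Slc32a1 and Slc30a3, both in K27M only. A further solute carrier gene with a letter at its end, Slc6a20a, had a K27M-only peak of 2.6 kb and stood outside that list.

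Sites that held no protein-coding start were counted apart. Of the 15 such sites that were wider, 13 held a CpG island window and 6 held the start of a non-coding gene. A site of this kind carries Mir124a-1, a gene of the neuronal microRNA miR-124, on chromosome 14, and measured 3 kb in Control and 9.2 kb in K27M. The site of the non-coding gene Kis2 on the X chromosome went from 3.2 to 10.2 kb. Among the 48 K27M-only sites without a protein-coding start, 38 held a CpG island window and 31 overlapped a protein-coding gene. Among the 50 Control-only ones, 10 held a CpG island window, 25 were mostly multi-copy, and 34 held no gene start of any kind and lay in no protein-coding gene. The widest of them, on chromosome 8, measured 29.8 kb and was 81.5% multi-copy.

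Over the 300 bp promoter windows, the median promoter of the K27M-only genes held 19 CpG (17 to 22), that of genes in both lists 16, that of Control-only genes 11.5 and that of all 22225 protein-coding promoters 11. TATAAA on either strand was found in 5 of 88 K27M-only promoters (5.68%), 13 of 26 Control-only promoters (50%) and 13.4% of all promoters. CCAAT was found in 44.3%, 76.9% and 38.0%, and GGGCGG, the GC box, in 63.6%, 42.3% and 43.5%. Neighbouring matches may share their end letters, and a match says only that the letters occur in the window. Histone promoters set much of the Control-only values: TATAAA was in 56.7% and CCAAT in 85.1% of all 67 histone promoters, and 16 of the 26 Control-only promoters are of histone genes. The 10 Control-only promoters of other genes held a median of 18.5 CpG (0 to 27), close to the K27M-only median, and 3 of them held TATAAA.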

How the data were processed

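Each deposited file listed the peaks of 1 library as chromosome, start and end, with no other column (the unit is therefore a position in bp, not a score or signal). According to the methods of the study and the submitters' processing notes, the authors aligned the reads to mm9 with Bowtie 1.0.0 at default settings and called broad CBX2 peaks for each library with MOSAiCS-HMM. Limits for false discovery rate, gap and peak size and a threshold were set for these calls, and peak widths depend on them. Spike-in chromatin was added before immunoprecipitation. Whether an input library or scaling between libraries entered the calls is not given in the sources used here. At the default settings of Bowtie a read with several equal matches is assigned to a single one. Peak number and width move with read number, which is unknown.

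Starts were multiples of 200 bp and ends lay 199 bp above one, so peaks were read as whole 200 bp bins. Overlapping peaks of both lists were joined by chains of overlap into sites, and summed widths were divided. Genes were GENCODE vM1 protein-coding symbols on NCBIM37, the sequence of mm9. A CpG island window was 500 bp (step 50 bp) with G+C of 55% or more and CpG observed over expected of 0.65 or more. Peaks were called multi-copy when 50% or more of their 32-mers (1 every 100 bp) had a further match anywhere in NCBIM37, both strands counted. Shares have exact Clopper-Pearson 95% intervals and medians distribution-free binomial ones. With 1 library per group no test was run. Python 3.11.15, numpy 2.4.6, scipy 1.17.1 and pysam 0.24.0 were used, and the class rules were tested on simulated data.

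The sites and lists were chosen with earlier results of these data known. Genes were named when they lay in the 5 widest kept sites, in the 10 kept sites with the largest or smallest ratio, in the 10 widest sites of either list alone, at the 1.5-fold limit, or when a listed gene lay in 1 list only or in a wider or narrower site. The other genes were named after their values were seen, as typical members of their list or as exceptions. The AP-2, Dmrt and Prdm lists were added after the data were seen. Libraries of EZHIP, EEDnull and K27R cells were not analysed here. Some genes that the naming rule covers are not reported here.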

Additional observations from a re-analysis of the deposited data

How the results depend on the processing

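Of 175 values recomputed under 17 alternatives, 147 moved by less than their interval or 1.5 times, 28 moved further and 0 reversed direction. Among peaks of at least 5000 bp there were 180 Control peaks, both medians were 12600 bp, 90% of Control peaks were kept, 18 were in Control only, and 42 kept sites (26.9%) were wider. Requiring both peaks of a pair to overlap by 50% left 58.8% of Control and 52.0% of K27M peaks kept, 119 Control-only peaks, 35 wider sites (20.6%), 1 narrower site and a median log2 ratio of 0.17. Without multi-copy peaks 84.7% of Control peaks were kept and 35 were in Control only. With equal numbers of the widest peaks 73.4% of K27M peaks were kept. A looser fold limit called 46.6% of kept sites wider and 12 narrower, one of 2-fold 39 wider (17.8%), and one of 2000 bp 124 wider (56.6%) and 12 narrower. Counting starts within 1000 bp of a peak gave 42 Control-only genes. Of K27M-only sites of at least 5000 bp, 94% held a CpG island window. Chosen after the data were seen, a common minimum width of 2200 bp kept 83.8% of Control peaks, and leaving out histone gene sites left 9 Control-only genes. No paired analysis was possible because a single library stood for either group, and for that reason no library could be left out. Peak positions carry no read depth, so a site absent from a list was not called there and is not shown to lack CBX2.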
